A study of Mus musculus with 12 samples.

Results

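The 3226 sites described here were stretches of chromatin that were open in every library of cells cultured on the Notch ligand Delta1 and in no library of cells that had not met it. They were chosen by the presence of DNase-seq peaks. Peaks of all 12 libraries on chromosomes 1 to 19 and X were merged wherever they overlapped by at least 1 bp, which gave 170207 consensus DNase I hypersensitive sites (DHSs). A member had a peak in all 6 libraries of DN1, DN2a and DN2b cells and in none of the 6 libraries of LSK and IgG cells. Members made up 1.9% of all consensus DHSs. A peak in all 6 Delta1-cultured libraries, whatever the others held, was found at 33606 DHSs.

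DNase-seq maps open chromatin by sequencing short fragments that DNase I cuts from nuclei. The study's methods name C57BL/6J mice and mice with floxed Notch1, and the labels give no strain or genotype for these libraries. LSK cells (3 libraries) are marrow stem and progenitor cells, negative for lineage markers and positive for SCA1 and KIT, and were sorted without culture. The other cells were grown from LSK cells with SCF, FLT-3 ligand, IL-6 and IL-11. DN1 cells (2 libraries, KIT++CD44+CD25-) were sorted from culture on immobilized Delta1. DN2a cells (2 libraries, KIT++CD44+CD25+) and DN2b cells (2 libraries, KIT+, CD44 low, CD25+) came from Delta1 cultures that also received IL-7. IgG cells (3 libraries) were grown on human IgG1 without ligand. IL-7 and stage cannot be told apart between DN1 and DN2, and ligand and time in culture cannot be told apart between LSK and the Delta1 groups. By the study's methods the DN groups were drawn from each LSK replicate, and replicates of a group came from separate isolates. Libraries of different groups may share an isolate, and the labels do not say which.

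The lists held 32952 to 111582 peaks. Read depth is unknown, since the lists hold peaks and no reads, and a peak missing from a short list says less than one missing from a long list. The 3 IgG lists were the shortest, at 32952 to 37511 peaks, so absence from IgG rests on the shortest lists. The gate markers were looked up at their promoters. Those of Kit and Cd44 had a peak in all 12 libraries and so did not tell the groups apart. That of Il2ra, which encodes CD25, had one in 2 of 2 DN2a and 2 of 2 DN2b libraries and in 0 of 3 LSK, 0 of 2 DN1 and 0 of 3 IgG libraries.

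Delta1 binds Notch receptors on the progenitor, and the cut receptor tail joins RBPJ on DNA to switch on target genes. Early T cell precursors then come under the control of TCF1, GATA3 and later BCL11B, working beside RUNX, E protein, ETS and Ikaros family factors that progenitors already hold. Distal DHSs are mostly enhancers, insulators and other regulatory elements, and each holds a short stretch of DNA in which factors replace a nucleosome.

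Of the 10 members whose sequences were read, 7 are given here, 6 because they show the feature that recurred most among members, the 6 letters TGTGGT that RUNX factors recognise, and 1, near Tox, as a member without it. The 3 named first were among the 4 members with the highest score percentiles. The others were taken from the highest members near genes of the T cell lists. All were read from the plus strand of GRCm38.p6, the assembly behind mm10, as held by RefSeq. Capitals mark TGTGGT or its reverse complement ACCACA. The Il2ra upstream member (chr2:11623217-11623386) lay 19.5 kb before the start of Il2ra. The Osbpl3 member (chr6:50416957-50417146) lay in an intron of Osbpl3, and the Plcg1 member (chr2:160756877-160757086) in Plcg1, across the end of a coding exon, with its midpoint in an exon of a transcript without coding annotation. The Zap70 member (chr1:36835757-36835926) lay in an intron of the neighbouring gene Tmem131. The Cd3e member (chr9:44998217-44998386) was intergenic, 11.3 kb downstream of the Cd3e start. The Tox member (chr4:7152057-7152226) lay 160.6 kb upstream of Tox, and the Runx1 member (chr16:92748417-92748606) in a Runx1 intron.
Il2ra upstream member: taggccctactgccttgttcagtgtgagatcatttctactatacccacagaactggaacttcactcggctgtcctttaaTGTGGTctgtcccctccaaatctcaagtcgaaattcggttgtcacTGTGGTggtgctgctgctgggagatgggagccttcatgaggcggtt
Osbpl3 intron member: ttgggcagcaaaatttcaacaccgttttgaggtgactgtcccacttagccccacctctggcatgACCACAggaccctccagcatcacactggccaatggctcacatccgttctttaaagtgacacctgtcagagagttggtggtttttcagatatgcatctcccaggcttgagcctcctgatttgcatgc
Plcg1 member: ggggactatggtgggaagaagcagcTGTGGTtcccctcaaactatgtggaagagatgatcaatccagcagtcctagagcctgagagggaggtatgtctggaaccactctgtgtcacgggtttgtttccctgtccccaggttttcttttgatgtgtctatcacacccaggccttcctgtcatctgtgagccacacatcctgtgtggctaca
Zap70 member: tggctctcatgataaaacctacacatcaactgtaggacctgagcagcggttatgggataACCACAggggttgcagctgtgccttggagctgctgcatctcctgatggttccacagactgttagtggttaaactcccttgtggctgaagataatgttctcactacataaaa
Cd3e member: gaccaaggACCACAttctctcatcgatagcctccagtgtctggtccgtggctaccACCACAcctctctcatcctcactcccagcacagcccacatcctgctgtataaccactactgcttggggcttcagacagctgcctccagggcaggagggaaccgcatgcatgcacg
Tox upstream member: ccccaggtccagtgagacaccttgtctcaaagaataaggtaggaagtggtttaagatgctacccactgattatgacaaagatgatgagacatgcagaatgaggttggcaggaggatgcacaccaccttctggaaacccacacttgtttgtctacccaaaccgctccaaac
Runx1 intron member: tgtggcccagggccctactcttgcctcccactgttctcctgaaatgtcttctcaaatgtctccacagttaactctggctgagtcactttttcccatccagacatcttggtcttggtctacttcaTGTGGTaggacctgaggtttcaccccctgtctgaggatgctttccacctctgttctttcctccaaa

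The Il2ra, Osbpl3, Plcg1, Zap70, Cd3e and Runx1 members each held at least 1 match, and the Il2ra and Cd3e members held 2. The Tox member held none. A match is a description of the letters and not evidence that a factor was bound.

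Across the members, 1940 of 3226 had TGTGGT on either strand within the 200 bp centred on the DHS. This was 60.1% (95% Wilson interval 58.4% to 61.8%, counting error only), against 26.9% of all consensus DHSs. Members also carried several matches more often. At least 2 were found in 20.5% of members and 5.0% of all DHSs, and at least 3 in 3.47% and 0.637%. Outside promoters the shares were 62.3% of 2991 members and 30.0% of 142185 DHSs.

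Other ways of being present in the libraries gave other shares of TGTGGT. DHSs with a peak in all 12 libraries, most of them promoters, had it in 16.0%, and in 27.7% of the 5492 outside promoters. Those of all Delta1-cultured and all LSK libraries but no IgG library had it in 33.0% (interval 31.8% to 34.3%). DHSs found in any other set of exactly 6 libraries, a like number of lists, had it in 24.1% (23.0% to 25.2%). Sites of the DN2 libraries alone had it in 49.7% (46.9% to 52.4%) and those of DN1 alone in 40.1% (38.4% to 41.9%). In DHSs of all LSK and all IgG libraries without Delta1, 27 of 168 had a match (16.1%, 11.3% to 22.4%). The 94 DHSs of all Delta1-cultured and all IgG libraries without LSK reached 61.7% (51.6% to 70.9%), an interval that includes the members' share. These are shares of sites within the same 12 libraries, and no test was made of them.

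**Figure D1:**
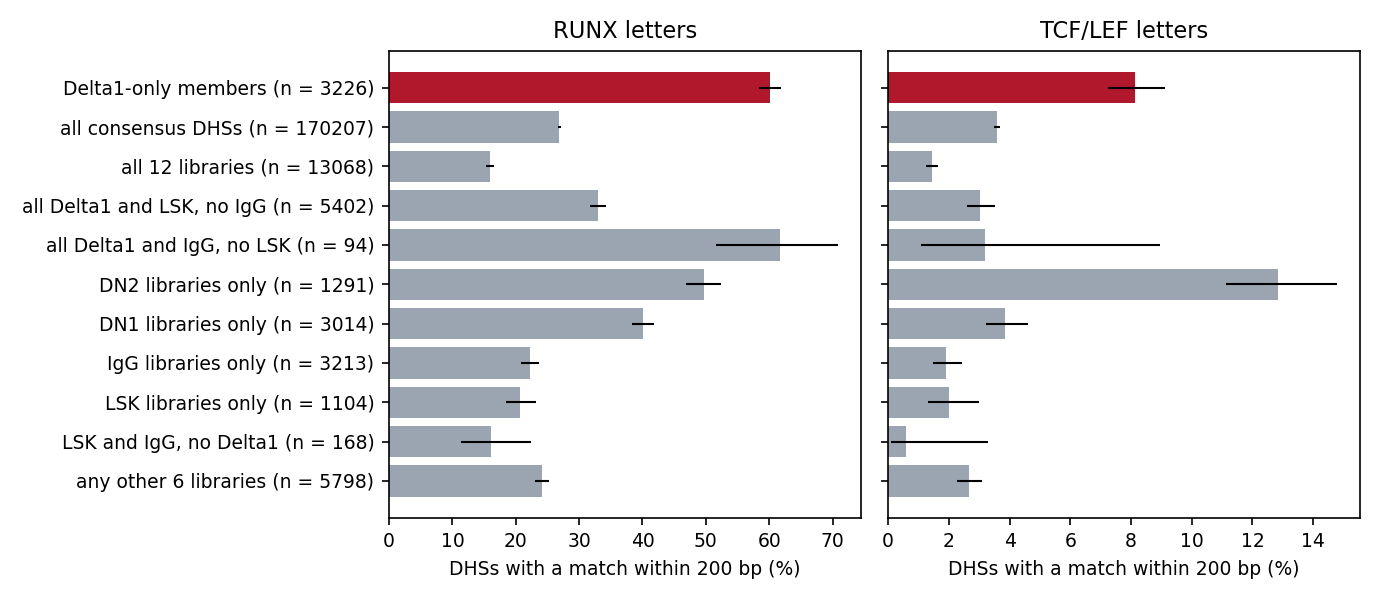
Share of DHSs with the RUNX letters TGTGGT (left) or the TCF/LEF letters CTTTGAT (right) on either strand within 200 bp of sequence centred on the DHS, by the libraries that had a peak. Bars give the percentage and lines the 95% Wilson interval; members stand at 60.1% and 8.12%, all consensus DHSs at 26.9% and 3.59%.

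Matches to TGTGGT lay close to the middle of the members. In the 20 bp just after the midpoint there were 14.1 matches per 100 members, and in the 20 bp that began 180 bp after it there were 1.55. All other DHSs had 4.46 and 1.39 matches per 100 in the same places. At the outer edge the members and the other DHSs were thus close, and the surplus was greatest within 80 bp of the midpoint. The insulator protein CTCF gave the opposite picture. Its core letters AGGGGGC reached 1.30 matches per 100 in the 20 bp before the midpoint of other DHSs and 0.403 in members, where the profile had no clear centre.

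**Figure D2:**
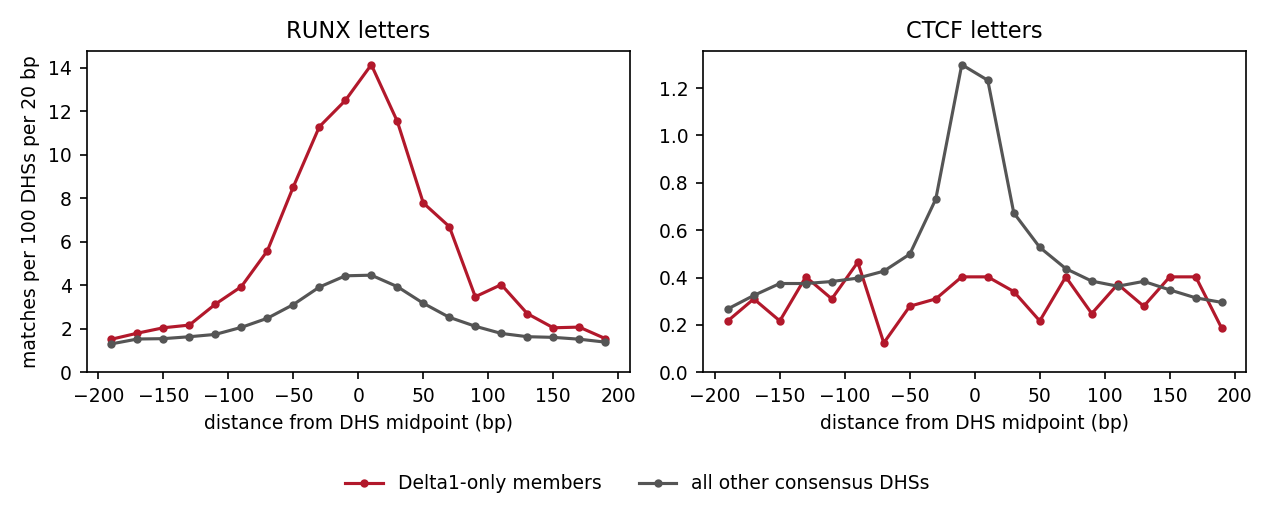
Matches per 100 DHSs in bins of 20 bp, from 200 bp before to 200 bp after the DHS midpoint, for the RUNX letters TGTGGT (left) and the CTCF core AGGGGGC (right), both strands. The members' RUNX profile reaches 14.1 at the centre, above 4.46 in all other DHSs, while their CTCF profile stays flat.

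Of the 16 motifs searched, on both strands, the TCF/LEF letters had the highest ratio of members to all DHSs. CTTTGAT, which TCF1 and LEF1 recognise, was found in 8.12% of members and 3.59% of all DHSs, a ratio of 2.26. TGTGGT followed at 2.24. The GATA letters AGATAA came next, with 16.5% and 10.7%, then the E protein letters CAGCTG with 21.1% and 14.4%. In the DHSs of the DN2 libraries alone the shares were 12.9% for TCF/LEF and 20.5% for GATA, both above those of members. E protein letters were in 22.6% there, with an interval from 20.4% upward that includes the members' share. In the DHSs of LSK alone the shares were 1.99% for TCF/LEF, 16.8% for GATA and 18.3% for E protein letters. The GATA interval in LSK alone, 14.8% to 19.2%, includes the members' share. GTGGGAA, the letters of RBPJ, the DNA partner of Notch, were in 6.60% of members and 4.56% of all DHSs. Sites of DN2 alone had RBPJ letters in 6.27% (interval 5.08% to 7.73%, which includes the members' share). Their share was 5.61% in DN1 alone, 3.33% in IgG alone and 3.26% in LSK alone. Smaller surpluses over all DHSs were seen for MEIS (CTGTCA, 21.4% and 16.4%), ETS (AGGAAGT, 19.7% and 16.0%), STAT (TTCNNNGAA, 7.81% and 6.44%) and MYB (TAACNG, 23.3% and 20.2%). Other patterns reached like or higher shares. ETS letters were in 31.0% of the DHSs of DN1 alone, though in 14.1% of DN2 alone. MYB letters were in 25.7% of IgG alone. In DN2 alone STAT letters were in 21.2% and MEIS letters in 19.5%. IRF (GAAANNGAA, 8.03% and 7.86%), NFAT (TGGAAA, 16.0% and 16.7%) and C/EBP (TTGCNNCAA, 1.61% and 1.75%) were close to the shares of all DHSs.

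The letters of PU.1 (GAGGAAGT), a progenitor and myeloid factor whose letters contain the ETS motif, were in 5.64% of members and 6.41% of all DHSs. AP-1 (TGANTCA) was in 8.25% and 9.40%, KLF/SP (GGGNGGGG) in 11.1% and 13.8%, and CTCF in 3.13% and 6.18%. Outside promoters the KLF/SP shares were 10.2% and 10.7%. CTCF letters were in 2.79% of the DHSs of DN2 alone, 2.69% of DN1 alone, 1.28% of IgG alone and 4.71% of LSK alone. Among members with and without TGTGGT, TCF/LEF letters were found in 7.78% and 8.63%, GATA letters in 16.8% and 16.0%, and E protein letters in 20.4% and 22.2%. NFAT letters were in 17.4% and 14.0%, and STAT letters in 8.40% and 6.92%. KLF/SP letters, in 9.12% and 14.2%, and CTCF letters, in 2.01% and 4.82%, were less frequent where TGTGGT was present. At least 1 of the RUNX, TCF/LEF, E protein, GATA and ETS motifs was present in 2628 members (81.5%) and in 53.8% of all DHSs, and also in 80.5% of the DHSs of DN2 alone and 71.5% of those of DN1 alone.

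The GC content of members was close to that of all DHSs. The median GC content of the 200 bp was 48.5% in members and 49.0% in all DHSs, and 60.0% in DHSs of all 12 libraries. The repeat-masked part covered at least 50% of the 200 bp in 4.06% of members and 6.57% of all DHSs. CpG dinucleotides were fewer, at a mean of 2.83 per member and 4.72 per DHS, but 2.61 in DHSs of DN2 alone, 2.16 in DN1 alone and 2.28 in IgG alone. No CpG was held by 17.1% of members and 12.5% of all DHSs, and outside promoters by 18% and 14.6%. Merged members had a median width of 190 bp, against 170 bp for all DHSs.

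Most members lay away from promoters. Within 1 kb of the start of a protein-coding gene there were 235 (7.28%, interval 6.44% to 8.23%), against 16.5% of all consensus DHSs. The share was 4.80% for DHSs of the DN2 libraries alone, 3.92% for DN1 alone, 3.14% for IgG alone and 7.52% for LSK alone. Introns held 1718 members (53.3%) and 44.4% of all DHSs. Intergenic sequence held 1070 (33.2%), close to the 32.2% of all DHSs. Coding exons held 49, UTRs 68 and other exons 86. The median distance from a member to the nearest protein-coding start was 31.5 kb, against 21.3 kb for all DHSs and 0.360 kb for DHSs of all 12 libraries. It was 31.7 kb for DHSs of DN2 alone, 37.95 kb for DN1 alone, 27.1 kb for IgG alone and 49.9 kb for LSK alone. A distance of more than 50 kb was found for 36.6% of members and 30.9% of all DHSs. A share of 41.4% lay upstream of the nearest start, as did 42.2% of all DHSs.

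Peaks of the groups without Delta1 were also looked for beside the members. A peak of an LSK or IgG library lay within 1 kb of 730 members (22.6%) and within 5 kb of 1721 (53.3%). For DHSs of the DN2 libraries alone the shares were 19.4% and 52.6%. The share over all consensus DHSs was not taken. The median number of consensus DHSs within 50 kb was 15 for members and 14 for all DHSs.

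The rule is a threshold on presence, and its edges were close. A further 3044 DHSs had a peak in 5 of 6 Delta1-cultured libraries and in no other, and the missing library was DN1 replicate 2 for 1143 of them and DN2b replicate 2, the longest list, for 28. Another 1650 had all 6 and 1 of the LSK or IgG libraries, with LSK replicate 3 the extra library for 665 and IgG replicate 1 for 46. The score percentile, the standing of a peak among all peaks of its own list, had a median of 62.3 over the members' 6 libraries. It was 44.9 over the peaks of DHSs that missed 1 library. For DHSs with 1 extra library it was 59.5 over the 6 Delta1-cultured lists and 22.4 in the extra one. These values chose the members and support nothing further.

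List length moved the membership. With the 32952 highest peaks of every list, the same pattern held at 1432 sites, of which 826 were members as deposited. These 826 were 57.7% of the shorter set and 25.6% of the members. The members' own peaks stayed among the highest 32952 for 1308 of 3226 in DN1 replicate 1 and 1493 in DN1 replicate 2. They stayed for 2103 and 2379 in DN2a replicates 1 and 2, and for 2170 and 2161 in DN2b replicates 1 and 2. Members were therefore less often among the highest 32952 peaks in DN1 than in DN2.

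The cut at equal lengths and the percentiles given next come from the same scores. The members' median percentile within the whole list was 60.7 and 49.5 in DN1 replicates 1 and 2, 62.3 and 59.5 in DN2a, and 60.5 and 78.5 in DN2b. The mean of library medians was 55.1 ± 7.90 (SD, n = 2) for DN1. For DN2 it was 65.2 ± 8.96 (SD, n = 4), a difference of 10.1. With 1 library left out this difference ran from 5.63 (without DN2b replicate 2) to 16.3 (without DN1 replicate 1). The DN1 and DN2 libraries overlapped, since DN1 replicate 1 lay above DN2a replicate 2 and DN2b replicate 1. Whole-list percentiles depend on list length, so ranks were also taken among the 33606 DHSs that all 6 lists share, an alternative chosen after the list lengths were seen. On that scale the members' medians were 21.2 and 24.5 in DN1, 34.0 and 38.3 in DN2a, and 39.9 and 40.5 in DN2b. All 4 DN2 libraries then lay above both DN1 libraries. The means were 22.8 ± 2.32 (SD, n = 2) and 38.2 ± 2.95 (SD, n = 4), a difference of 15.4. DN2a and DN2b did not overlap either, but the gap between their nearest libraries was below the SD of 3.07 between the DN2a replicates.

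DHSs that were open in LSK cells as well did not follow this course. For DHSs of all Delta1-cultured and LSK libraries without IgG, the rank medians were 33.5 and 33.4 in DN1, 32.4 and 32.5 in DN2a, and 31.6 and 30.7 in DN2b. For DHSs of all 12 libraries they went from 76.8 and 76.3 in DN1 to 73.3 and 73.6 in DN2b. Ranks are relative, and a higher rank of members goes with a lower rank of other sites by construction.

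**Figure D3:**
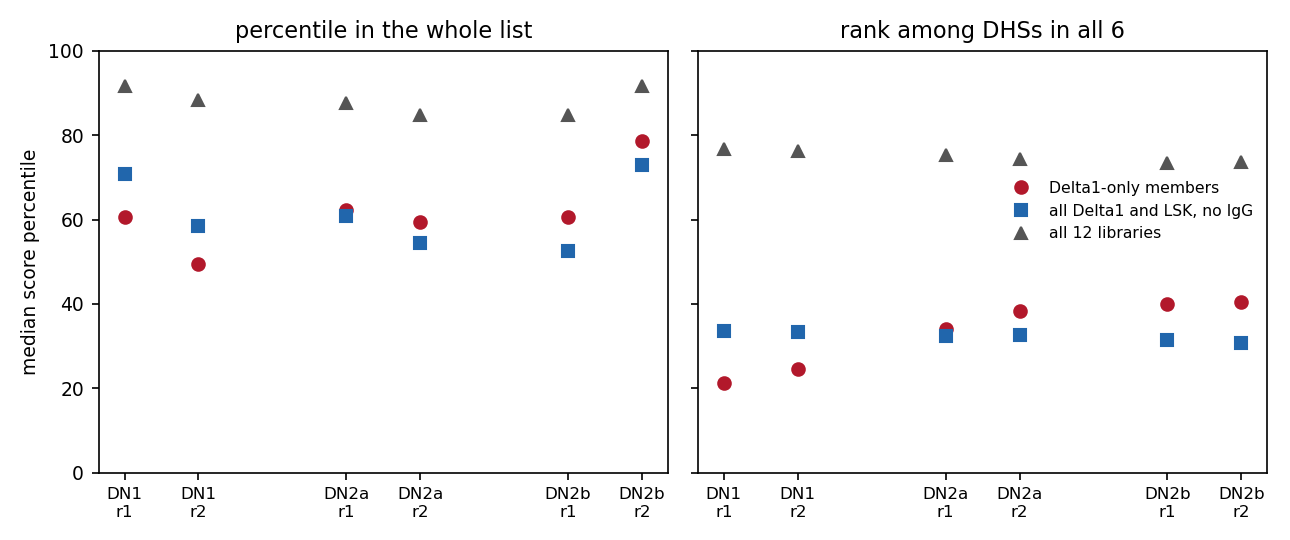
Median score percentile of DHSs in each Delta1-cultured library (r1 and r2 are replicates), as the percentile in the library's whole list (left) and as the rank among the 33606 DHSs found in all 6 (right). Each point is 1 library; on the right the members go from 21.2 and 24.5 in DN1 to 39.9 and 40.5 in DN2b, while sites shared with LSK stay between 30.7 and 33.5.

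Single members were then read for whether the 4 DN2 values and the 2 DN1 values overlapped. By rank among shared DHSs, every DN2 value lay above both DN1 values in 1371 members (42.5%, interval 40.8% to 44.2%), against 15.2% of all 33606. Every DN1 value lay above all DN2 values in 269 members (8.34%), against 16.2%. By whole-list percentile the shares were 30.8% of members against 7.47% for DN2 above DN1, and 7.72% against 13% for DN1 above DN2. Between the DN2 stages, both DN2b ranks lay above both DN2a ranks in 1068 members (33.1%), against 21.5% of the 33606. The reverse held in 594 members (18.4%), against 21.5%. Sites shared with LSK stood at 15.7% for DN2 above DN1, close to the 15.2% background. The 94 DHSs of all Delta1-cultured and all IgG libraries without LSK stood above it, at 29.8% (interval 21.5% to 39.7%). In 23.4% of those 94 the order was the reverse.

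Motif shares were also counted by this order of stages. Of the 1371 members with DN2 above DN1, 10.1% had TCF/LEF letters (interval 8.58% to 11.8%), against 6.69% of 269 with DN1 above DN2 and 6.68% of 1586 with overlap. STAT letters, which the IL-7 receptor's signal transducer STAT5 recognises, were in 10.4%, 4.83% and 6.05%. PU.1 letters went the other way, in 62 of 1371, 27 of 269 and 93 of 1586 members, or 4.52% and 5.86% for the first and the last. E protein letters were in 23.2%, 16.4% and 20.1%. RUNX letters were common in all of them, at 60.8%, 66.9% and 58.4%. IL-7 was given to the DN2 cultures alone, and its part in these shares was not tested. Among DHSs outside the members but also in all 6 libraries, PU.1 letters were in 4.42% with DN2 above DN1 and 12.6% with DN1 above DN2, and STAT letters in 8.10% and 4.98%.

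The RUNX share also differed with the standing of the member. With members divided by median rank into 4 parts of like size, it was 54.0% in the lowest, then 57.4% and 62.1%, and 67.0% in the highest. Other DHSs of the same rank ranges had 21.4%, 24.3%, 27.7% and 23.9%.

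The members with the highest median percentile over the 6 libraries were mostly far from promoters. Of these 12, 6 lay in introns and 4 between genes, and 9 had TGTGGT (60.1% of all members did). At equal lengths 11 kept a peak in all 6 lists, against 25.6% of all members, which the choice of high percentiles favours. The DN2 percentiles all lay above the DN1 percentiles in 9 of them and the reverse held in 1. The shares were 30.8% and 7.72% over all members, and 7.47% and 13% over the 33606 shared DHSs. Since 4 of the 6 libraries behind the median were DN2, the choice itself favours members high in DN2. The very highest, at chr11:3157517-3157706 in an intron of Sfi1, stood at 99.95 and 99.85 in DN1, 99.97 and 99.89 in DN2a, and 99.16 and 97.20 in DN2b. It lay in an unusually crowded stretch, where 90 consensus DHSs lay no farther than 50 kb away, against a median of 15 for members, and 38 of those 90 had a peak in all 12 libraries. No filter for such regions was applied, and their part in this member's scores was not tested.

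The second was the member 19.5 kb upstream of Il2ra shown above. It stood at 93.8 and 79.3 in DN1, 99.4 and 98.1 in DN2a, and 98.6 and 99.3 in DN2b. It thus had a peak in both DN1 libraries, in which the Il2ra promoter had no peak. Its nearest annotated start was that of Gm17490, 2.96 kb away. Another member, 6.56 kb before the Il2ra start at chr2:11636157-11636346, stood at 68.8 and 53.4 in DN1, 69.6 and 80.0 in DN2a, and 87.5 and 94.0 in DN2b. The last, 15.0 kb inside the gene at chr2:11657717-11657906, stood at 62 and 30.5 in DN1, 82.0 and 68.9 in DN2a, and 76.0 and 86.3 in DN2b. In all 3, every DN2 value lay above both DN1 values, against 30.8% of all members and 7.47% of the 33606 shared DHSs.

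The Osbpl3 intron member stood at 63.2 and 47.4 in DN1 and at 97.9, 98.5, 98.8 and 99.7 in the DN2 libraries, so a middling peak in DN1 was among the highest in DN2. The Plcg1 member, in the gene of phospholipase C gamma 1, which acts below the T cell receptor, stood at 83.1 and 84.2 in DN1 and 98.3, 97.9, 99.2 and 99.0 in DN2. A member at chr13:19356197-19356406, whose nearest start was that of Stard3nl, lay 3.44 kb past the last annotated segment of the T cell receptor gamma locus. It stood at 80.9 and 67.2 in DN1, 98.4 and 97.7 in DN2a, and 99.0 and 99.7 in DN2b. The member in an intron of Tnfrsf1b, the gene of TNF receptor 2, held 1 RUNX match and stood at 90.1 and 82.5 in DN1 and at 96.8, 96.8, 98.8 and 98.4 in DN2.

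The highest members with other neighbours were nearest to Acot11, an acyl-CoA thioesterase gene, Kpna2, which encodes a nuclear import receptor, and Pik3r1, which encodes a regulatory subunit of PI3 kinase. Others were nearest to Fam181a, in an intron of Asb2, to the adhesion gene Cntn1, and to the olfactory receptor gene Olfr9. The member near Fam181a held no RUNX match. The Il2ra member, with 2, held the most among these 12. The Kpna2 member was the one with the order reversed, at 98.3 and 97.9 in DN1 and at 97.3, 93.5, 95.1 and 97.2 in DN2, a DN2 minus DN1 difference of -1.90 between the group medians. The Cntn1 member overlapped, at 95.1 and 97.1 in DN1 and 97.0, 92.7, 97.7 and 96.7 in DN2.

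Among members whose stages did not overlap, the largest differences in favour of DN2 were in members with low percentiles in DN1. A member in an intron of Necab1, nearest to the start of Pip4p2, stood at 27.2 and 3.97 in DN1 and at 93.8, 95.2, 98.9 and 99.1 in DN2. A member in an intron of Nck2, the gene of an adaptor protein of T cell receptor signalling, stood at 45.4 and 7.76 in DN1 and at 92.7, 91.5, 97.0 and 98.4 in DN2. The member at the promoter of the olfactory receptor gene Olfr525 stood at 22.7 and 9.72, then at 91.2, 91.5, 93.5 and 97.7. Those near Dio3, Wdr11 and Ngly1 had differences of group medians of 67.6, 65.9 and 64.3 percentile points.

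The largest differences in favour of DN1 were smaller. The member nearest to Negr1 stood at 84.1 and 83.1 in DN1 and at 32.6, 20.5, 17.8 and 39.9 in DN2. The differences of group medians were -57.0 for it and -52.1, -51.5, -51.2, -50.4 and -48.2 for those near Ccdc138, Sh3pxd2b, D630003M21Rik, Zfp703 and Nedd1. None of these 6 kept a peak in more than 2 of the 6 lists at equal lengths, which follows from the low DN2 percentiles they were chosen for. Of the 12 members named for the largest differences, 10 had TGTGGT, against 60.1% of all members.

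**Figure D4:**
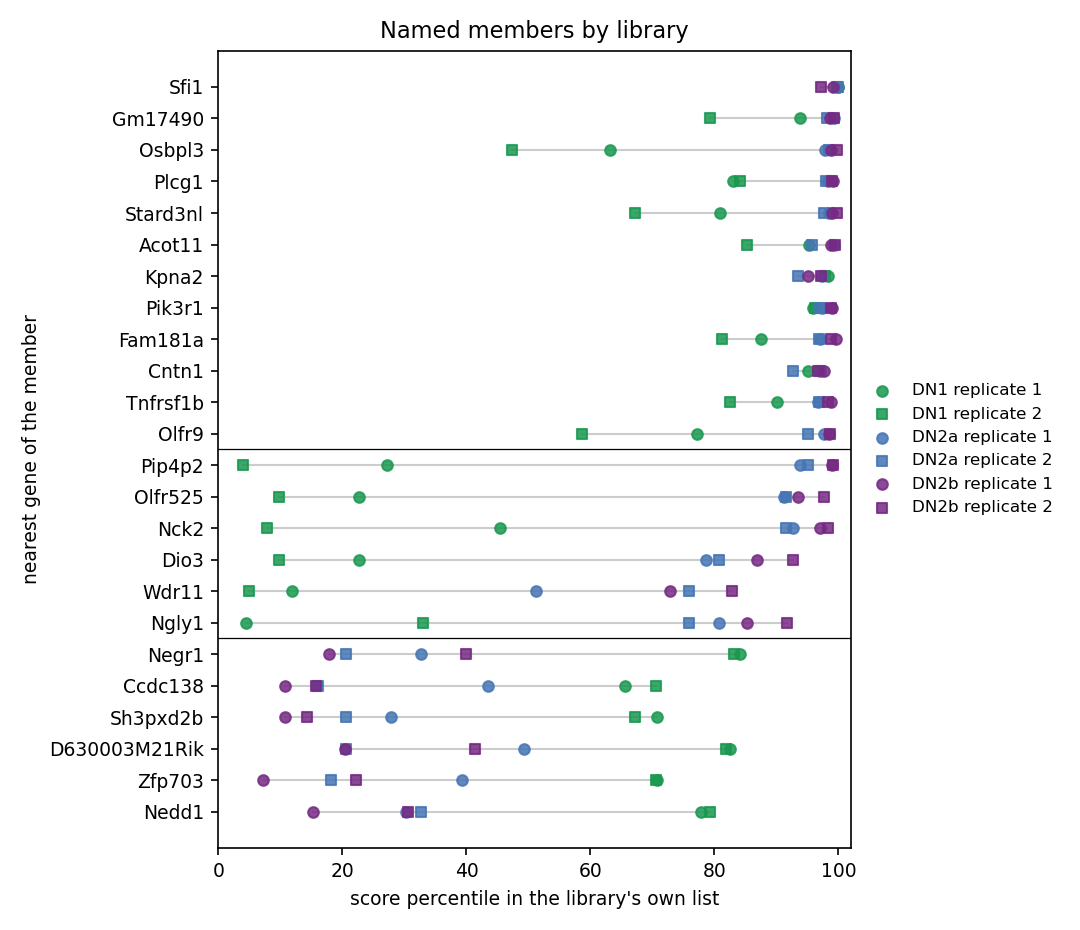
Score percentile in each library's own list (horizontal axis) for the 12 members with the highest medians (upper block) and the 6 members each with the largest difference in favour of DN2 (middle) and of DN1 (lower), named by nearest gene. Colours mark the stage and shapes the replicate; in the middle block the DN2 points sit far to the right of the DN1 points, and in the lower block far to the left.

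Every member was given to its nearest protein-coding start, and 2440 genes were named in this way, 1902 of them once. The nearest start is a convention and need not be the gene a site acts on. The 12 genes named for most members held 70, with 1 at a promoter. The last 5 of them had 5 members each, a number that 9 genes reached, and were taken by their higher summed median percentile. Tox, which encodes a high-mobility group factor needed for T cell development in the thymus, had 8 of its 66 DHSs as members (12.1%), spread from 41.1 to 536.4 kb from its start, with 6 of them intergenic and 2 in introns. Their ranks showed no common course, with 2 higher in DN2, 1 higher in DN1 and 5 overlapping. Klf3, a Krüppel-like factor gene, had 7 of 81, all upstream, in 2 tight groups of 3 and 1 alone. The first group lay within chr5:64490757-64498766 and the second within chr5:64675037-64679006.

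Ptprc, which encodes the leukocyte surface phosphatase CD45, had 5 members within 21 kb of its start, and in all 5 every DN2 rank lay above both DN1 ranks. The one with the highest median percentile, 16.1 kb upstream at chr1:138191657-138191866, stood at 95.3. Maf, a transcription factor gene, had 6 members, 63.4 to 519.1 kb from its start. Their median ranks were 10.1 and 19.2 in DN1, 39.8 and 41.9 in DN2a, and 61.3 and 64.5 in DN2b, with no overlap between the stages. Vav3, the gene of an exchange factor of antigen receptor signalling, had 6 members, 5 of them in its introns. Foxn3, a forkhead gene, had 6, with 3 in a single intronic stretch at chr12:99324417-99329526 that went opposite ways. Of those 3, 2 were higher in DN1 and 1 was higher in DN2. Akap6 also had 6, and Rapgef2, Rad51b and Zfp704 had 5 each. Over the 70 members of these 12 genes, 38 had DN2 above DN1 by rank and 6 the reverse, against 42.5% and 8.34% of all members.

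Adam6a and 2210010C04Rik complete the 12, and both names stand for antigen receptor loci. The 6 members given to Adam6a lay 450.5 to 1247.1 kb from it, within the immunoglobulin heavy chain locus. By rank, 5 of these 6 had DN2 above DN1, against 42.5% of all members. Those of 2210010C04Rik lay in the T cell receptor beta locus on chromosome 6, among whose segments trypsinogen genes are placed. That locus held 10 members among 85 DHSs (11.8%). Their median rank was 44.7 in DN1 and 69.7 in DN2. The heavy chain locus held 11 of 217 (5.07%), at 11.7 and 14.3. The T cell receptor alpha and delta locus held 7 of 147 (4.76%), with low ranks of 11 and 10.8 in DN1 and DN2. The gamma locus held 3 of 44 (6.82%), at 9.53 and 56.4. The immunoglobulin kappa locus held 0 of 33 and the lambda locus 0 of 3. These shares stand beside 1.9% over the genome, and the number of DHSs in each locus limits how precisely they are known.

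Members near genes of T lineage transcription factors came to 31, or 4.55% of the 681 DHSs nearest to these 20 genes (interval 3.23% to 6.39%), against 1.9% over all DHSs. They fell to 12 of the 20 genes. Gata3 (0 of 7), Lef1 (0 of 28), Runx3 (0 of 55), Tcf3 and Myb were among those without one. Tcf7, which encodes TCF1, had 3 of its 17 DHSs as members. Its promoter member, 0.388 kb before the start, stood at 43.6 and 45.2 in DN1, 59.5 and 59.5 in DN2a, and 54.3 and 73.0 in DN2b. Its highest member, 28.0 kb upstream at chr11:52310857-52311086, stood at 33.6 and 33.0 in DN1, 76.2 and 70.0 in DN2a, and 85.3 and 88.9 in DN2b. None of the 3 Tcf7 members had TGTGGT, and all 3 had DN2 above DN1 by rank, against 42.5% of all members and 15.2% of the shared DHSs.

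Runx1, which encodes a RUNX factor itself, had 4 of 88, and 3 of those 4 held TGTGGT. The intron member shown above stood at 80.4 and 60.2 in DN1, 84.5 and 78.5 in DN2a, and 86.4 and 90.4 in DN2b. By rank, 3 of the 4 had DN2 above DN1, against 42.5% of all members. Ikzf1, the Ikaros gene, had 3 of 23, all within its introns between chr11:11711837 and chr11:11737366. The highest of them overlapped between stages, at 79.2 and 63.2 in DN1 and 83.8, 88.2, 65.6 and 86.7 in DN2. Ets2 had 3 of 32, all with TGTGGT, of which 2 had DN2 above DN1 and 1 the reverse.

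Gfi1, Satb1 and Bach2 had 2 members each. Bcl11b, the T commitment factor, had 1 of 32, at a median percentile of 54.3. It held 4 matches to TGTGGT and stood at 58.0 and 67.2 in DN1 and 49.3, 50.6, 33.3 and 61.3 in DN2, with overlap. Ets1, Tcf12 and Ikzf2 had 1 each.

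T cell receptor and T cell surface genes had 10 members, 3.26% of the 307 DHSs nearest to those 24 genes (interval 1.78% to 5.89%, which includes the 1.9% over all DHSs). They fell to 6 of the 24 genes. Cd3d, Cd3g, Cd247 (0 of 26), Lck, Lat, Ptcra, Rag1, Rag2 (0 of 26), Themis (0 of 31) and Thy1 were among those without one. Zap70, the kinase that acts directly below the receptor, had 4 of its 17 DHSs. Of these, 1 lay in an intron of Zap70 and 3 in introns of Tmem131. The one shown above stood at 85.4 and 56.9 in DN1 and at 93.8, 91.5, 93.1 and 94.0 in DN2, with no overlap. The Cd3e member, near the gene of a receptor chain, was already high in DN1. It stood at 87.6 and 87.8 there and at 73.6, 86.0, 88.0 and 93.4 in DN2. Lcp2 had 2 members, and Cd28 and Fyn had 1 each. The DN2 minus DN1 difference of group medians was -26.0 percentile points for the Cd28 member, which overlapped by rank, and -32.4 for the Fyn member, which did not.

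Notch pathway genes had 12 members, 2.54% of 472 DHSs (interval 1.46% to 4.39%, which includes the 1.9% over all DHSs). They fell to 8 of the 20 genes, and Notch2, Notch3 and Nrarp were among those without one. Hes1, a direct Notch target, had 3 of 63, all at least 81.3 kb from its start. By rank, 0 of these 3 had DN2 above DN1 and 1 had the reverse. Dtx1, another target, had 2 of its 6 DHSs. Notch1, Rbpj, Maml1, Dtx3l and Myc had 1 each and Maml3 had 2. Over the list, 3 of 12 had DN2 above DN1 by rank, against 42.5% over all members.

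Cytokine receptor and STAT pathway genes had 15 of 378 (3.97%, interval 2.42% to 6.44%), against 1.9% over all DHSs. They fell to 9 of the 20 genes, and Flt3, Kit and Il2rg were among those without one. Jak1, the kinase of the IL-7 and IL-2 receptors, had 4 of 37, with 2 in its own introns and 2 upstream. Its strongest, at chr4:101187457-101187626, had a median percentile of 85.9. Socs1, an inhibitor of these kinases, had 3 of 37, all in introns of the neighbour Clec16a. Il2ra by nearest start had 2, and Il7r, Il2rb, Stat5b, Socs2, Bcl2 and Il6st had 1 each. In 9 of the 15 every DN2 rank lay above both DN1 ranks, and in 0 was it the reverse, against 42.5% and 8.34% of all members.

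Natural killer and innate lymphoid genes had 17 of 383 (4.44%, interval 2.79% to 6.99%), against 1.9% over all DHSs. This share was close to that of the T lineage factors. These 17 members fell to 11 of the 20 genes of the list. Id2, the inhibitor of E proteins, had 4 of 113, from 144.7 to 606.1 kb away. Il12rb2, a chain of the IL-12 receptor, had 3 of 15, all with TGTGGT. Homing and adhesion genes had 13 of 307 (4.23%, interval 2.49% to 7.11%), also against 1.9%. These 13 members fell to 7 of the 15 genes of the list. At S1pr1, the receptor for exit from tissues, 4 of 47 DHSs were members, all downstream of it.

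Stem and progenitor genes had 6 of 405 (1.48%, interval 0.681% to 3.19%), with 3 of them at Erg. B lineage genes had 6 of 255 (2.35%) and myeloid genes 1 of 184 (0.543%, interval 0.0960% to 3.01%), near Cebpe. The intervals of these 3 lists include 1.9%.

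**Figure D5:**
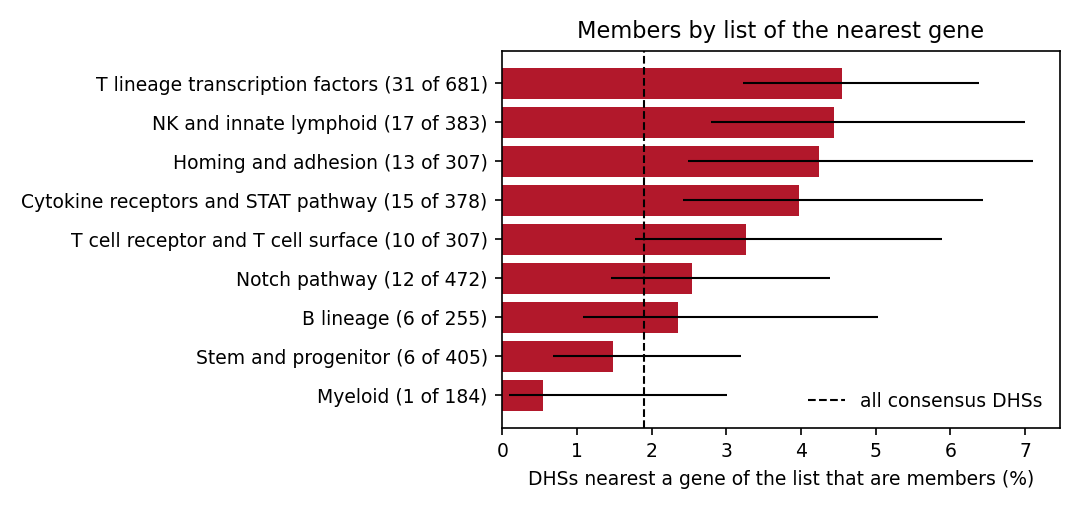
Share of the DHSs nearest to a gene of each list that are members, in percent, with the counts beside each name and 95% Wilson intervals as lines. The dashed line marks the 1.9% over all consensus DHSs; T lineage factors stand at 4.55%, Notch pathway genes at 2.54% and myeloid genes at 0.543%.

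At the promoter of a listed gene lay 7 members, and over all members 7.28% lay at a promoter. Those at Tcf7, Ccr7, Gzma, Erg, Gfi1 and Nkg7 are named here after their values were seen. By rank, all 7 had DN2 above DN1, against 42.5% of all members and 15.2% of the 33606 shared DHSs. Gzma, the granzyme A gene, stood at 43.6 and 33.0 in DN1, 82.0 and 80.7 in DN2a, and 88.0 and 96.4 in DN2b. Ccr7, a homing receptor gene, stood at 77.2 and 76.2, then at 82.0 and 88.2, then at 93.5 and 94.0. Nkg7, a cytotoxic granule gene, stood at 62 and 72.7 in DN1 and at 84.5, 78.5, 87.5 and 90.0 in DN2. The Gfi1 member stood at 69.7 and 58.6 in DN1 and at 70.6, 77.7, 81.7 and 92.0 in DN2. The Erg promoter member was a weak peak, at 16.1 and 25 in DN1 and 37.2, 37.6, 35.7 and 79.6 in DN2.

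Members were spread over all chromosomes. The share of DHSs that were members was lowest on the X chromosome, at 37 of 3795 (0.975%), and highest on chromosome 14, at 144 of 6510 (2.21%). The median distance from a member to the next was 94.8 kb. Another member lay within 10 kb of 393 (12.2%), within 50 kb of 1079 (33.4%) and within 100 kb of 1659 (51.4%). Spacing and window counts were not taken for other sets of DHSs. Whether members lay closer together than other sites was therefore not tested. In windows of 500 kb that held any DHS, 3142 of 4897 had no member, 930 had 1 and 459 had 2. The most in a window was 8, reached by 5 windows.

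The first of these was the T cell receptor beta window, chr6:41000001-41500000, where 8 of 65 DHSs were members (12.3%) and their median percentile was 78.1. The window at chr14:21500001-22000000 had 8 of 80, of which 3 were nearest to Kat6b, a histone acetyltransferase gene. The window at chr3:9500001-10000000 had 8 of 101, with 5 nearest to Zfp704 and 3 to Pag1, the gene of an adaptor that restrains T cell receptor signalling. The window at chr16:4500001-5000000 had 8 of 112 spread over 7 genes, 2 of them at Cdip1. The window at chr17:29000001-29500000 had 8 of 127, among them 1 nearest to Pim1, a kinase gene induced by cytokines.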

How the data were processed

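DNase-seq was analysed from 12 peak lists, 1 for each library. Per the submitters' processing notes and the study's methods, the authors aligned reads to mm10 with BWA 0.7.12, handled alignments with SAMtools 1.2 and ran hotspot2 for peaks at an FDR of 0.05, without pooling replicates. Each deposited peak was 150 bp wide and carried a score, a whole number from 1 to 150 whose meaning is not given in the sources used here. It served only as a percentile within its list (ties at the middle rank). The lists hold no read totals, so depth is unknown and list length stands in its place.

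Peaks were merged in Python 3.11.15 with pandas 2.3.3 and numpy 2.4.6, scipy 1.17.1 gave ranks, and sequence was read with pysam 0.24.0. Genes were the 21755 protein-coding records of GENCODE M21 (the study used an earlier release), with the 5' end of the record as start. A promoter was 1 kb either side of it. Location was taken at the DHS midpoint, in the order promoter, coding exon, UTR, other exon, intron, intergenic. Replicates were numbered in deposition order. Values outside chromosomes 1 to 19 and X were left out, where 0 sites of the pattern lay among 91 DHSs.

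No test was run: the members were selected on these peaks, and sites are not replicates. Intervals are 95% Wilson intervals for counting error only. Named items were the 12 members with the highest median percentile, the 6 with the largest stage difference in each direction, the 12 genes with most members, every gene of the 9 lists with at least 3 members, and the 5 windows of 500 kb with most members. Other members are named as examples of their list, and 1 gene of the lists is counted but not reported here by itself. The members, lists and motifs were chosen with earlier results of these data known. Merging, nearest starts and motif search were tested on simulated data. The alternatives were equal list lengths, the upper 50% of each list, other merging distances, promoter windows and start sites, and each library left out.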

Additional observations from a re-analysis of the deposited data

How the results depend on the processing

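The number of members was 3226 as reported and 1432 at equal list lengths, and with each library left out in turn it ran from 3249 (without DN2b replicate 2) to 4367 (without DN1 replicate 2). The other alternatives kept it within 1.5 times. The promoter share of 7.28% was 3.75% and 12.4% with windows of 500 bp and 2500 bp, 10.6% with every protein-coding transcript start, 10.2% in the upper 50% of each list, 6.31% with peaks merged within 150 bp, and 7.42% to 8.65% with a library left out. At equal list lengths it was 7.19%, against 21.4% of all DHSs there. The DN2 minus DN1 difference of 10.1 percentile points was positive in all 10 alternatives run, at 15.2 with equal list lengths, 15.4 by rank among shared DHSs and 5.63 to 16.3 without 1 library, lowest without DN2b replicate 2. The share of members with DN2 above DN1 was 43.5% at equal lengths, against 15.1% of the 18863 DHSs found there in all 6 libraries. The share within 50 kb of another member, 33.4%, was 23.3% at equal lengths. TGTGGT was found in 64.1% of members at equal lengths and in 27.2% of all DHSs there, and in 45.3% and 65.1% with windows of 100 bp and 300 bp. No paired analysis was possible because the labels carry no replicate numbers. Unknown depth and the short IgG lists limit every absence, so a member may be open in LSK or IgG cells below the level that was called.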

Other observations

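Motif letters of 4 patterns next to the members are given as values, with no explanation. Of the 94 DHSs open in all Delta1-cultured and all IgG libraries but no LSK library, 25.5% had the AP-1 letters TGANTCA, as did 21.4% of the 3213 DHSs of the IgG libraries alone and 8.25% of the members. The PU.1 letters GAGGAAGT were in 19.6% of the 3014 DHSs of the DN1 libraries alone, in 2.01% of the 1291 DHSs of the DN2 libraries alone and in 5.64% of the members. The STAT letters TTCNNNGAA were in 5.24% of the former, 21.2% of the latter and 7.81% of the members.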
